A study of Danio rerio with 58 samples.

Results

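The mitosis and chromosome segregation genes are 40 named zebrafish genes that encode the cyclins, kinases, checkpoint proteins, kinetochore parts, spindle motors, condensin subunits and cytokinesis factors used when a cell divides. They were taken as the rows of the deposited count table whose symbol was on the list, which gave 39 of the table's 35117 genes, since incenp had no row. The gene nuf2 and the gene ube2c each had a second row, with 1 and 15 reads over all cells, and the row with more reads was used.

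The cells came from the dorsal aorta of zebrafish embryos carrying Tg(flk1:eGFP) and Tg(flk1:NLS-Eos), both driven by the promoter of flk1, also called kdrl. Red Eos+ cells were picked by hand from the roof or the floor of the vessel at 21 or 28 hours post fertilization (hpf), and the polyA RNA of each cell gave 1 library by the Smart-seq2 protocol. The roof gave 18 cells at 21 hpf and 10 at 28 hpf, and the floor gave 18 and 12. All groups carried both transgenes. The labels name no embryo, which makes a group 1 sample here, and cells were not tested as replicates. The labels do not say whether cells came from pooled embryos.

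Total counts of a cell lay between 129849 and 8254178. Cells were compared after thinning to 200000 reads. A single roof cell (cell 9 of 21 hpf) was too shallow for this, so 57 of 58 cells entered, with 17 instead of 18 in that group. Levels are in CPM, the usual counts-per-million share of the thinned reads, without correction for gene length, so they compare 1 gene between cells and not genes with each other. A gene was detected in a cell at 5 or more thinned reads, which is 25 CPM. All intervals have a level of 95%. For a level or a ratio they reflect read counting, for a share they reflect how many cells were counted, and the spread between embryos is in neither.

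The labels call all cells endothelial, and the endothelial markers held for the roof but not for most of the floor. A roof cell of 21 hpf had a median of 18 of 19 pan-endothelial genes detected, and a floor cell had 6. At 28 hpf the medians were 18.5 and 2.5, and kdr, flt1, cdh5 and tie1 were among the 10 pan-endothelial genes with no thinned read in the 12 floor cells. Before thinning these 10 genes had 12 reads in all over the 12 cells, and 3 of them, kdr included, had none. Erythroid genes exceeded 1% of the counts in 8 floor cells of 21 hpf and 3 of 28 hpf, and reached at most 0.0128% in a roof cell that entered the comparisons. In 4 floor cells of 21 hpf (cells 3, 6, 16 and 18) the pan-endothelial share, 0.937% to 3.54%, overlapped that of the roof cells, which had 0.521% or more. Floor cell 6 of 28 hpf had 10% of its counts on muscle genes, which took at most 0.0442% in any roof cell of that stage, and it was not called. The myeloid list took a median of 0.107% of the counts in the floor and 0.00502% in the roof at 21 hpf, and 0.0816% and 0.00341% at 28 hpf. Of its 10 genes, 8 had thinned reads in the floor and 2 in the roof at 21 hpf, and 6 and 2 at 28 hpf. Those with reads in the floor at both stages included mpx, spi1b, coro1a and ptprc. The genes mpeg1.1 and csf1ra, of macrophages, had no read in floor or roof at either stage. These differences in cell makeup lie along the same contrast as every floor and roof comparison below, and their part in it was not tested.

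In dividing cells cyclin A and cyclin B activate the kinase Cdk1, which, with the Polo and Aurora kinases, drives chromosome condensation by condensin and the building of the spindle. Kinetochores tie each chromosome to spindle fibres, and the spindle checkpoint holds the cell until all are attached. The anaphase-promoting complex with Cdc20 then targets cyclin B and securin for destruction, and the central spindle guides the cut between the daughter cells. Most of these genes are transcribed in late S phase, G2 and M and are low in G1 and in cells outside the cycle.

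Most cells carried either most of the member set or little of it. A cell was called G2/M-type when at least 20 members were detected, which is a range of a count and not a cell type. The name stands for this count alone and does not set G2 and M apart from S phase. Of the 57 cells, 30 were called (52.6%, Clopper-Pearson interval 39% to 66.0%). The called cells had 20 to 38 members detected and a summed member level of 3645 to 18815 CPM, with a median of 9308 CPM. The other 27 cells had 0 to 18 members detected, with a median of 3, and summed levels of 0 to 2445 CPM, with a median of 250 CPM. Near the limit, with 17 to 22 members detected, lay 4 cells. They were roof cells 6 (17 members) and 12 (21) and floor cell 12 (20) of 21 hpf, and floor cell 11 (18) of 28 hpf. Just below this range were floor cells 4 (15), 5 (14), 6 (16) and 15 (13) of 21 hpf. No member was detected in roof cell 3 and floor cell 1 of 28 hpf.

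**Figure D1:**
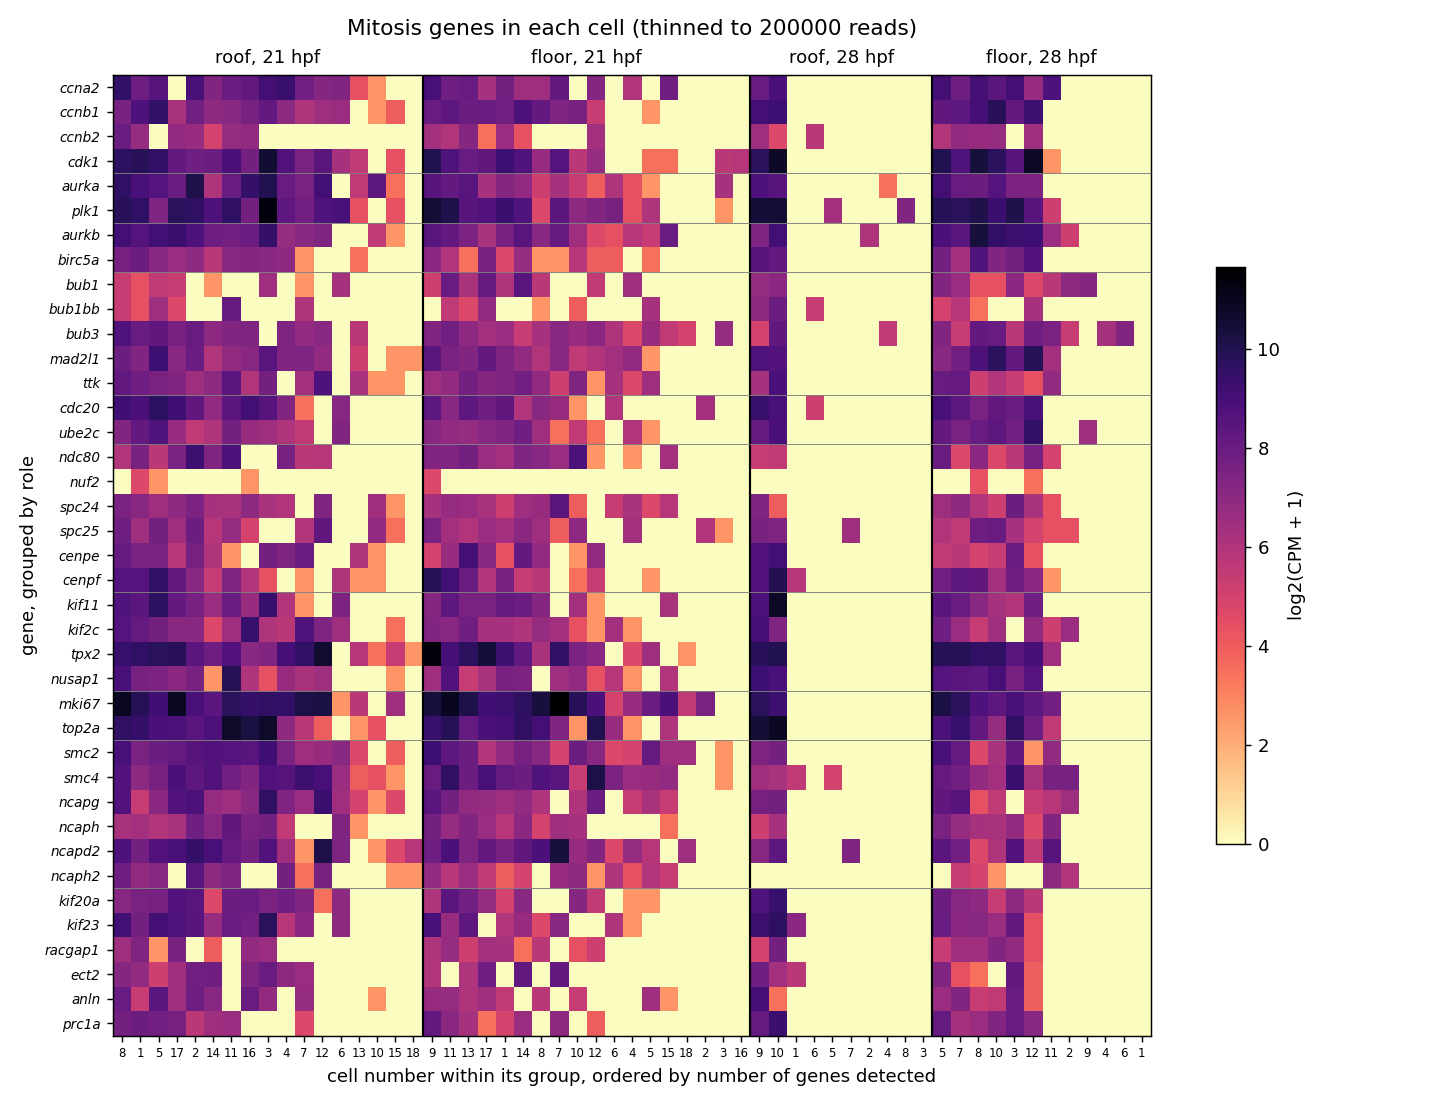
Level of each of the 39 members (rows, ordered by role) in each of the 57 cells (columns, by group and number of members detected), as log2(thinned CPM + 1). The 30 G2/M-type cells carry most members at once, and the 2 such roof cells of 28 hpf stand against 8 roof cells that are nearly empty.

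The single members separated the called cells from the others to different degrees. In the called cells, ccnb1, cdk1, plk1, aurkb, mad2l1, tpx2, mki67 and smc4 were detected in 30 of 30. In the other cells, birc5a, racgap1 and prc1a were detected in 0 of 27 and ccnb1 in 1 of 27. The checkpoint gene bub3 was detected in 12 of the 27 and mki67, the gene of a protein on the surface of mitotic chromosomes that is widely used as a proliferation marker, in 9 of the 27. Since the members made the call, these counts describe it and do not test it.

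The called cells were also distinct in genes that did not enter the call. Of 64 further mitosis genes in the table, the called cells had 25 to 49 detected, with a median of 39, and the other cells 4 to 36, with a median of 9. Called cells had more genes with reads at equal depth, with a median of 5785 against 4534. Their total counts before thinning had higher medians than those of the other cells within each of the 4 groups, for example 2161600 against 1174300 in the roof of 21 hpf. Over all 57 cells the order was the reverse, with medians of 2161600 and 4080520. Depth differed with stage, from 216581 to 4693992 at 21 hpf and from 3630613 to 8254178 at 28 hpf. The part of the gene number and of depth in the call, and of depth in the stage comparisons, was not tested.

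The share of G2/M-type cells was highest in the roof at 21 hpf and lowest in the roof at 28 hpf. In the roof, 12 of 17 cells were called at 21 hpf (70.6%, 44.0% to 89.7%), but 2 of 10 at 28 hpf (20%, 2.52% to 55.6%). In the floor, 10 of 18 cells were called at 21 hpf (55.6%, 30.8% to 78.5%), and 6 of 12 at 28 hpf (50%, 21.1% to 78.9%). The intervals of roof and floor overlapped at both stages, and those of the roof at 21 and 28 hpf overlapped as well. They cover the counting of cells only, and the order of the 4 shares was not tested. On unthinned counts with the same limit of 25 CPM, 12, 9, 2 and 6 cells of the 4 groups were called.

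Within the floor of 21 hpf the share of called cells differed with cell makeup, but the intervals overlapped and the difference was not tested. Of the 8 floor cells with over 1% erythroid counts, 7 were called (87.5%, 47.3% to 99.7%). The 6 floor cells low in both marker lists gave 3 called cells (50%, 11.8% to 88.2%). Of the 4 floor cells with the endothelial share of a roof cell, 0 were called, which allows a share of up to 75% when 3 cells are set against the 4 and up to 60.2% by the Clopper-Pearson interval. Their summed member levels were 55 to 1230 CPM. That these lay below the lowest called roof cell of that stage (5605 CPM) follows from the call. Roof cells of that stage that were not called had 70 to 2400 CPM. At 28 hpf, 2 of 3 floor cells with over 1% erythroid counts and 4 of 9 others were called.

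The titles of the 28 hpf cells carry a part name whose meaning the labels do not give. Part means the first number of a roof title and the M number of a floor title. Floor titles also carry a D number, which differs between most cells of the same M number and was not used. Floor cell 12, a called cell, is D12 in its title but M12 in its description and in the count table, and was taken as M12. Both called roof cells were among the 5 of roof part 3, while the 4 cells of part 2 and the cell of part 1 were not called. In the floor, 4 of the 6 called cells were among the 6 of part M12, and M10 gave 1 of 1, M9 1 of 2, M8 0 of 2 and M11 0 of 1. No part held both roof and floor cells, so part and region cannot be told apart.

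**Figure D2:**
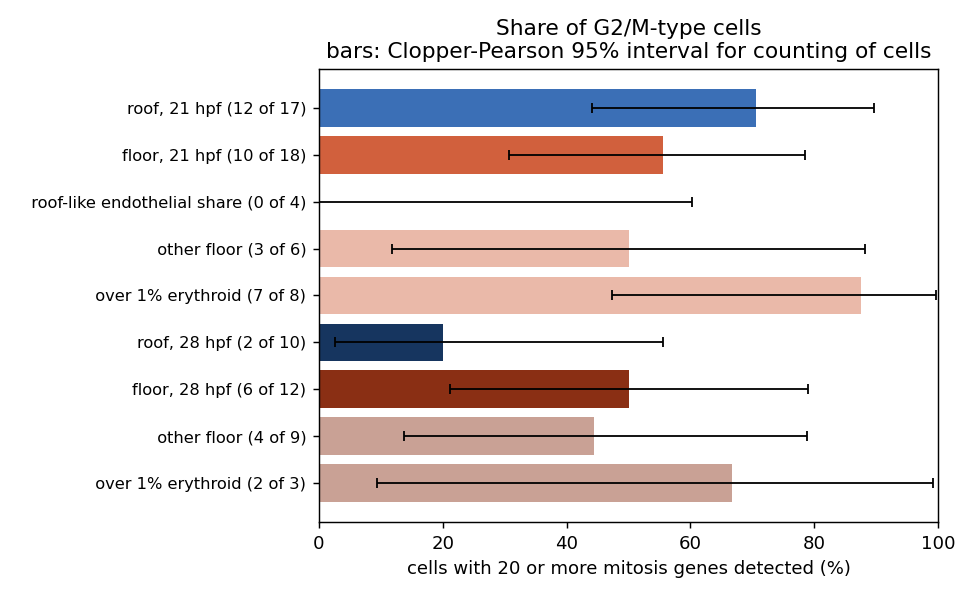
Percent of cells called G2/M-type (x axis, bars from 0, with Clopper-Pearson 95% intervals as lines) in the 4 groups and, in paler bars, in floor cells split by marker makeup, with the numbers of cells in the labels. The share runs from 70.6% in the roof at 21 hpf to 20% in the roof at 28 hpf, with intervals that overlap.

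S-phase genes were set beside the mitosis genes in each cell, using 54 genes of replication licensing, the fork, nucleotide supply and replication control. At 21 hpf, the roof had 10 of 17 cells with at least 27 of them detected (58.8%, 32.9% to 81.6%), and the floor had 12 of 18 (66.7%, 41.0% to 86.7%). At 28 hpf this was so in 0 of 10 roof cells, which allows a share of up to 30% when 3 cells are set against the 10 (30.8% by the Clopper-Pearson interval), and in 2 of 12 floor cells (16.7%, 2.09% to 48.4%), both with over 1% erythroid counts. The intervals cover the counting of cells only. These counts are a description, and neither the stages nor the 2 gene sets were tested against each other.

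Many cells of 21 hpf carried both sets. Of the 30 called cells of both stages, 17 also had at least 27 S-phase genes detected, so the call is not a measured phase. In the roof of 21 hpf, 8 cells had both, 4 the mitosis set without the S-phase set, 2 the S-phase set without the mitosis set and 3 neither. In the floor of 21 hpf the same 4 counts were 8, 2, 4 and 4. At 28 hpf the combination was rare: the roof had 0, 2, 0 and 8 cells, and the floor 1, 5, 1 and 5. The called roof cells of 28 hpf had 12 and 8 S-phase genes detected, while the called roof cells of 21 hpf had 21 or more. Of the 4 floor cells of 21 hpf with a roof-like endothelial share, 2 had at least 27 S-phase genes and none was called G2/M-type.

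**Figure D3:**
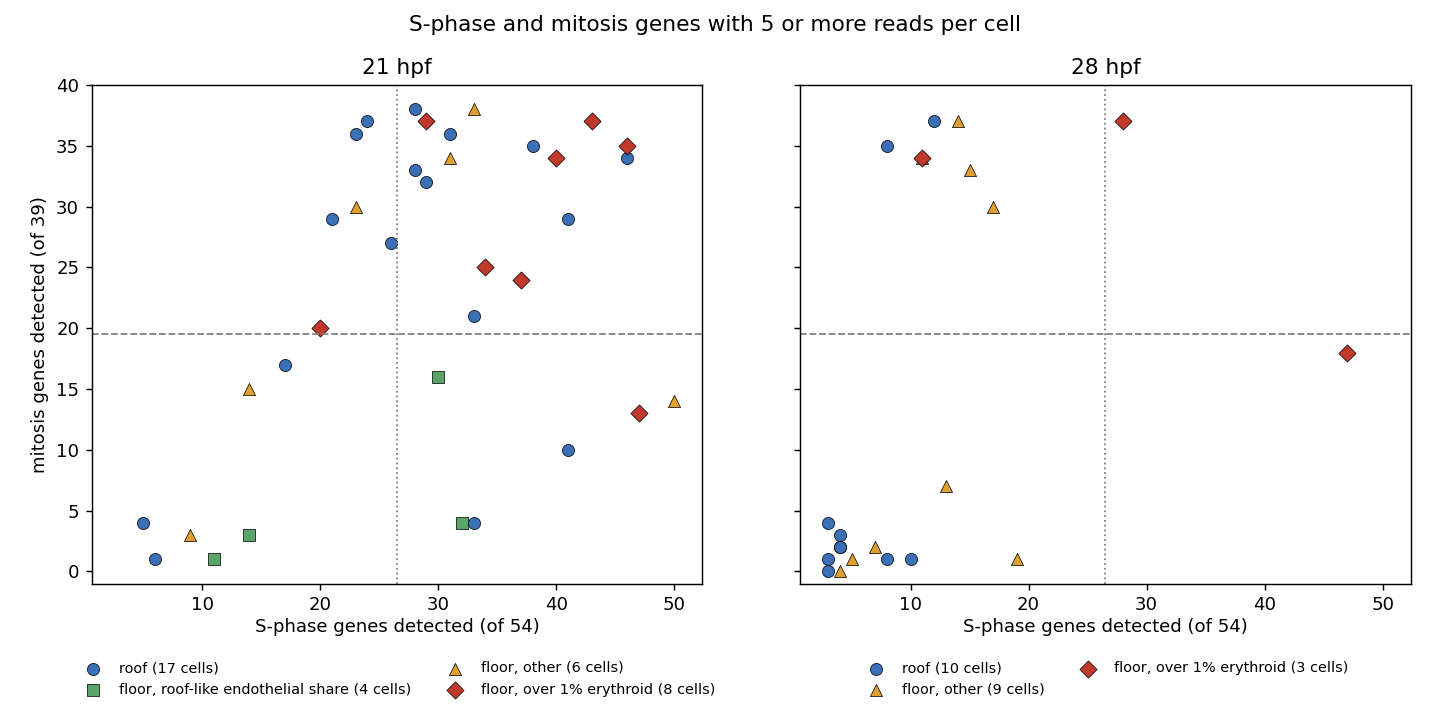
Number of S-phase genes detected (x axis, of 54) and of members detected (y axis, of 39) in each cell at 21 hpf (left) and 28 hpf (right), with roof cells as circles and floor cells by their marker makeup. The dashed line marks 20 members and the dotted line 27 S-phase genes, and the upper right field holds 16 cells at 21 hpf and 1 at 28 hpf.

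The summed level of the members gave opposite floor to roof differences at the stages. Per cell the sum ran from 70 CPM through a median of 8335 to 15430 CPM in the roof of 21 hpf, and from 55 through 4035 to 14565 CPM in the floor. In the cells of 28 hpf it ran from 0 through 137.5 to 18815 CPM in the roof and from 0 through 5748 to 12380 CPM in the floor. At 21 hpf roof and floor cells overlapped over nearly the whole range. At 28 hpf they overlapped at the low end alone, since 8 roof cells had at most 280 CPM and the other 2 had 14405 and 18815 CPM, above every floor cell.

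Over all reads of a group, the members took 7351 CPM (7261 to 7443) in the roof and 4731 CPM (4660 to 4803) in the floor at 21 hpf, a log2 ratio of -0.64 (-0.66 to -0.61) for floor against roof. At 28 hpf they took 3426 CPM (3345 to 3508) in the roof and 5298 CPM (5206 to 5391) in the floor, a log2 ratio of 0.63 (0.59 to 0.67). From 21 to 28 hpf the ratio was -1.10 (-1.14 to -1.06) in the roof and 0.16 (0.13 to 0.20) in the floor. The sign of the last ratio rested on single cells, with -0.024 when floor cell 5 of 28 hpf was left out.

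Called cells held most member reads, as the call implies. They had 96.8% of them (roof) and 92.7% (floor) in the younger stage, and 97.0% and 94.4% in the older one. The highest single cell of 21 hpf held 12.3% of its group's member reads among roof cells and 17.1% among floor cells. For the floor of 28 hpf this share was 19.5%, whereas cell 10 held 54.9% of the reads in the roof of that stage. Without it the floor to roof log2 ratio at 28 hpf was 1.63 in place of 0.63, and the ratio of 28 to 21 hpf in the roof was -2.10 in place of -1.10. The erythroid cells carried much of the floor sum at 21 hpf: without the cells of over 1% erythroid counts the floor to roof ratio was -1.25. With the 4 floor cells of roof-like endothelial share, none of them called, as the only floor cells the ratio was -4.04. At 28 hpf, leaving out the erythroid cells gave 0.36 and leaving out the cells of part M12 gave 0.16.

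**Figure D4:**
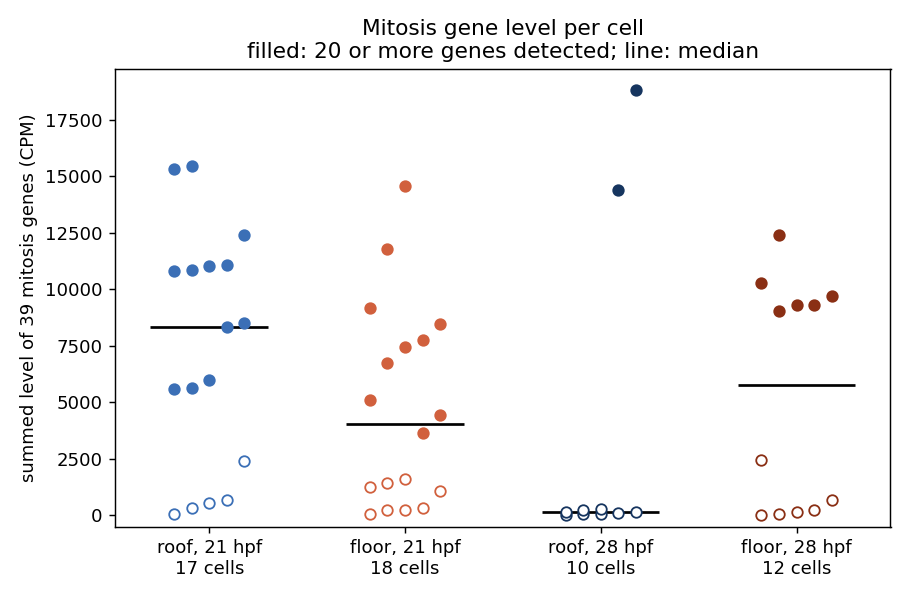
Summed level of the 39 members in each cell (points, in CPM of thinned reads on a linear axis) by group, with the median of each group as a line and G2/M-type cells filled. Called cells start at 3645 CPM and the other cells end at 2445 CPM, with roof cell 10 of 28 hpf highest at 18815 CPM.

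Gene by gene, a member counted as higher or lower when its log2 ratio of group levels was at least 1 either way, among genes with 10 or more reads over both groups. At 21 hpf, 1 of 39 members was higher and 11 were lower in the floor than in the roof, with a median log2 ratio of -0.74. Over all 12944 genes with enough reads, 32.8% were higher and 25.7% lower, with a median of 0.15. At 28 hpf, 15 of 38 members were higher and 3 lower in the floor, with a median of 0.88, beside 34.9% higher and 35.6% lower among 11140 genes, with a median of 0.08. The shares of members lower at 21 hpf (28.2%) and higher at 28 hpf (39.5%) were close to these backgrounds, while the opposite directions were rarer, at 2.56% and 7.89%. At 21 hpf this closeness depended on the cells of over 1% erythroid counts. Without them 29 of 39 members (74.4%) were lower in the floor and 0 higher, beside 26% lower and 29.5% higher of 12086 genes. At 28 hpf, leaving out such cells gave 12 of 38 members higher (31.6%) and 5 lower (13.2%), beside 32.4% and 38.6% of 10685 genes.

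Between stages the roof had 0 members higher and 20 of 38 lower at 28 hpf, with a median of -1.08, beside 22.5% higher and 35.3% lower among 11626 genes, with a median of -0.35. The floor had 6 higher and 2 lower of 39, with a median of 0.13, beside 16.5% higher and 42.2% lower among 12267 genes, with a median of -0.56. The comparisons at a stage and over time share groups, so their ratios are not independent of each other.

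A ratio was called stable when 4 ways of computing it all gave 2-fold or more: thinned reads, unthinned reads, the mean of the cells' levels, and thinned reads without any 1 cell. Of the members, 1 higher and 8 lower in the floor at 21 hpf were stable, and 9 higher and 0 lower at 28 hpf. By the same rule 16.9% of 12944 genes were stably higher and 13.5% stably lower at 21 hpf, and 15% of 11140 genes higher and 17.3% lower at 28 hpf, beside 20.5% of members lower at 21 hpf and 23.7% higher at 28 hpf. The rule does not cover another draw of the thinning, in which the log2 ratios of birc5a at 21 hpf and ccnb2 at 28 hpf were -0.83 and 0.97, and that of ndc80 at 28 hpf was 1.80 in place of 2.80. No member was stable at both stages in the same direction. At 28 hpf the 2 called roof cells set most values: of 38 members, 36 moved up by more than 1.5 times in the floor to roof ratio when roof cell 9 or 10 was left out. Among the stable ones, the floor to roof ratio became 13.4-fold for aurkb, 14.6-fold for bub3, 7.67-fold for ccna2, 15.4-fold for ncaph and 13.3-fold for ndc80 without roof cell 10. Without roof cell 9 it became 4.65-fold for ccnb2, 31.5-fold for spc24 and 5.67-fold for mad2l1. Roof cell 9 held 91.4% of the 35 thinned roof reads of spc24, so the spc24 value without it rests on very few reads.

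**Figure D5:**
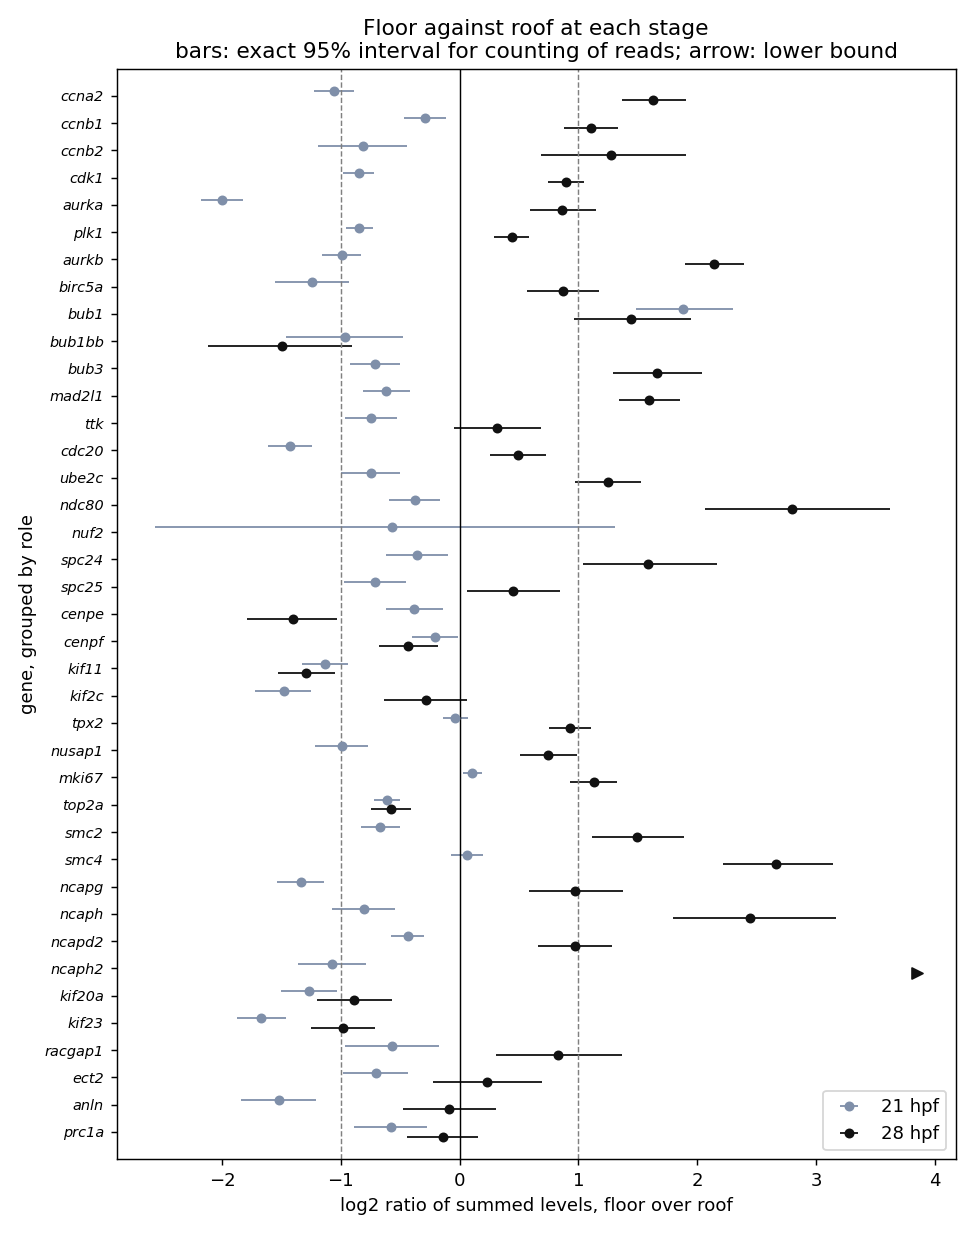
Floor to roof log2 ratio of each member at 21 hpf and 28 hpf (points, with exact binomial 95% intervals for the counting of reads), ordered by role, with lines at 2-fold. At 21 hpf bub1 is the member past 2-fold to the right, and at 28 hpf ncaph2, ndc80, smc4, ncaph and aurkb lie farthest to the right while kif11, cenpe and bub1bb lie to the left.

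In 9 of the 10 roles the summed floor to roof ratio at 28 hpf was highest without roof cell 10, and for the mitotic kinases without roof cell 9. The cyclins and Cdk1, which start mitosis, differed in the same directions as the sum. Their summed level had a floor to roof log2 ratio of -0.77 (-0.86 to -0.69) at 21 hpf and 1.1 (0.99 to 1.21) at 28 hpf, the latter 2.31 without roof cell 10. The cyclin A gene ccna2 ran from 0 through a median of 210 to 730 CPM in the roof of 21 hpf and from 0 through 80 to 505 CPM in the floor. In the older cells ccna2 was detected in 2 of 10 roof cells, reaching 465 CPM, and in 7 of 12 floor cells, reaching 540 CPM. As group levels these are 249 and 120 CPM at 21 hpf, 2.08-fold lower in the floor (1.85 to 2.34), and 73.0 and 226 CPM at 28 hpf, 3.09-fold higher in the floor (2.57 to 3.74). Only the second was stable.

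The main mitotic cyclin B gene ccnb1 was detected in 13 of the 17 roof cells of 21 hpf and in 10 of the 18 floor cells, with medians of 120 and 100 CPM and highest cells of 745 and 445 CPM. In the older cells it was detected in the 2 called cells of the roof, up to 600 CPM, and in the 6 of the floor, up to 900 CPM. Its floor to roof log2 ratio was -0.29 at 21 hpf and 1.1 at 28 hpf. The second cyclin B gene, ccnb2, had a median of 0 CPM in every group and highest cells of 245, 145, 85 and 110 CPM in the roof and floor of 21 hpf and the roof and floor of 28 hpf. It was 2.42-fold higher in the floor at 28 hpf (1.61 to 3.74), from 38.8 against 16 CPM, and stable.

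The kinase gene cdk1 had a median of 235 CPM in the roof and 77.5 CPM in the floor at 21 hpf, with highest cells of 1505 and 1010 CPM. At 28 hpf the median was 0 in the roof, where 2 cells had the transcript and cell 10 reached 1740 CPM, and 190 CPM in the floor, where 6 cells had it and the highest was 1800 CPM. Its group levels were 377, 210, 259 and 481 CPM, with floor to roof log2 ratios of -0.85 and 0.89, both within 2-fold. On unthinned sums the ratio at 21 hpf was -1.07.

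Among the other mitotic kinases, aurka differed most between roof and floor at 21 hpf. This kinase works at the centrosomes and spindle poles. It ran from 0 through a median of 265 to 1035 CPM over the roof cells and from 0 through 52.5 to 365 CPM over the floor cells of 21 hpf, so that the upper part of the roof range held no floor cell. Its group levels were 374 and 93.3 CPM, 4.00-fold lower in the floor (3.55 to 4.53), and it stayed between 3.56 and 4.83-fold lower when any 1 cell was left out. The later stage had aurka in 2 roof cells, up to 430 CPM, and 6 floor cells, up to 540 CPM, with group levels of 80.5 and 147 CPM.

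The Polo kinase gene plk1, needed at centrosomes, kinetochores and the midzone, had medians of 420 and 137.5 CPM and highest cells of 2570 and 1455 CPM in the roof and floor of 21 hpf. Later it was detected in 4 roof and 7 floor cells, with highest cells of 1420 and 1055 CPM. Its floor to roof log2 ratio was -0.84 at 21 hpf and 0.44 at 28 hpf.

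The chromosomal passenger complex, which corrects faulty attachments and acts in cytokinesis, was represented by aurkb, its kinase, and birc5a, a survivin gene. Over the roof cells of 21 hpf aurkb ran from 0 through 210 to 720 CPM, and over the floor cells from 0 through 77.5 to 360 CPM. Among the cells of 28 hpf it was detected in 3 of 10 roof cells, the highest at 560 CPM, and in 8 of 12 floor cells, with a median of 225 and a highest cell of 1320 CPM. It was 1.99-fold lower in the floor at 21 hpf (1.78 to 2.23) and 4.41-fold higher at 28 hpf (3.72 to 5.26), where the ratio was stable.

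The gene birc5a was detected in 10 roof and 6 floor cells at 21 hpf, with medians of 95 and 10 CPM and highest cells of 240 and 190 CPM. Its group levels of 82.1 and 34.7 CPM were 2.36-fold lower in the floor (1.91 to 2.94), and this was stable. By 28 hpf 2 roof and 6 floor cells had it, up to 375 and 420 CPM. From 21 to 28 hpf it was 3.47-fold higher in the floor (2.80 to 4.31).

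The spindle checkpoint held the only member higher in the floor at 21 hpf. The kinase gene bub1 ran from 0 through a median of 0 to 90 CPM over 17 roof cells and from 0 through 17.5 to 360 CPM over 18 floor cells. It was detected in 5 roof and 9 floor cells. Its group levels of 18.8 and 69.4 CPM were 3.69-fold higher in the floor (2.79 to 4.93), and between 2.78 and 4.83-fold higher when any 1 cell was left out. Within the called cells it was detected in 4 of 12 roof and 8 of 10 floor cells. Its log2 ratio of 1.88 was 0.32 without the cells of over 1% erythroid counts, no longer 2-fold. The 4 floor cells of roof-like endothelial share had no thinned bub1 read. With them as the only floor cells the log2 ratio was at most -2.33, a bound with 3 reads entered in place of 0. At 28 hpf bub1 reached 130 CPM in 2 roof cells and 155 CPM in 7 floor cells, and was 2.71-fold higher in the floor (1.94 to 3.85) without being stable.

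The other checkpoint genes were within 2-fold at 21 hpf. The gene mad2l1, whose product restrains Cdc20, had medians of 140 and 70 CPM in roof and floor at 21 hpf, and at 28 hpf was detected in 2 roof cells, up to 425 CPM, and 7 floor cells, up to 950 CPM. It was 3.02-fold higher in the floor at 28 hpf (2.53 to 3.61) and stable. The gene bub3, which anchors the checkpoint at kinetochores, was detected in 12 of 17 and 16 of 18 cells at 21 hpf and in 3 of 10 and 10 of 12 at 28 hpf. It was 3.16-fold higher in the floor at 28 hpf (2.45 to 4.12), stable, and this gene was also common in cells that were not called. The checkpoint kinase gene ttk had group levels of 133, 79.4, 53.0 and 65.8 CPM in the roof and floor of 21 hpf and the roof and floor of 28 hpf. The gene bub1bb was detected in 3 to 5 cells of each group, with highest cells of 275, 115, 240 and 75 CPM, and was 2.82-fold lower in the floor at 28 hpf (1.87 to 4.35), which fell to 1.25-fold without roof cell 10.

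Anaphase genes together had a floor to roof log2 ratio of -1.20 (-1.35 to -1.06) at 21 hpf and 0.83 (0.65 to 1.01) at 28 hpf, the latter 1.66 without roof cell 10. The gene cdc20, the activator of the anaphase-promoting complex, had medians of 155 and 60 CPM and highest cells of 805 and 320 CPM in roof and floor of 21 hpf. Its group levels of 261 and 96.9 CPM were 2.69-fold lower in the floor (2.37 to 3.05) and stable. The roof of 28 hpf had it in 3 cells, up to 660 CPM, and the floor in its 6 called cells, up to 480 CPM, with a floor to roof log2 ratio of 0.49. The gene ube2c, which encodes the ubiquitin-conjugating enzyme of that complex, had medians of 65 and 27.5 CPM at 21 hpf and 0 and 132.5 CPM at 28 hpf, with highest cells of 425, 225, 455 and 730 CPM. It was 2.37-fold higher in the floor at 28 hpf (1.96 to 2.89), not stably, and 2.86-fold higher in the floor at 28 than at 21 hpf (2.42 to 3.39).

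Kinetochore genes did not move as a block. Their summed floor to roof log2 ratio was -0.38 (-0.48 to -0.28) at 21 hpf and 0.03 (-0.12 to 0.19) at 28 hpf, the latter 1.09 without roof cell 10. Of the Ndc80 complex, which binds the spindle fibre, ndc80 had medians of 50 and 80 CPM and highest cells of 610 and 440 CPM at 21 hpf. By 28 hpf ndc80 reached no more than 45 CPM in the roof, in 2 cells, and 255 CPM in the floor, in 7 cells. It was 6.96-fold higher in the floor (4.20 to 12.3), stably, with 17 thinned reads in the roof. Its log2 ratio of 2.80 was 1.87 with unthinned sums and 2.09 with the mean of the cells' levels. Its partner spc24 had medians of 75 and 47.5 CPM at 21 hpf, and was detected in 1 roof cell (160 CPM) and 6 floor cells (up to 235 CPM) at 28 hpf. It was 3.00-fold higher in the floor at that stage (2.05 to 4.5), stably. The partner spc25 had group levels of 90.0, 55.0, 44.5 and 60.8 CPM, within 2-fold between floor and roof at both stages. The last subunit, nuf2, had almost no reads, with a highest level of 25 CPM in any cell and detection in 2 of the 30 called cells. Its partners ndc80, spc24 and spc25 were detected in 27, 26 and 26 of these cells. Whether the nuf2 row captures the reads of the gene was not tested.

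The motor gene cenpe and the gene cenpf, both of the outer kinetochore, were close in roof and floor at 21 hpf. There cenpe had medians of 65 and 2.5 CPM and highest cells of 275 and 530 CPM, and cenpf had medians of 40 and 7.5 CPM and highest cells of 770 and 940 CPM. Their log2 ratios were -0.38 and -0.21, and single cells weighed on both: without floor cell 13 cenpe was 2.04-fold lower in the floor, and without floor cell 9 cenpf was 1.94-fold lower. At 28 hpf cenpe was detected in 2 roof cells, up to 555 CPM, and 5 floor cells, up to 250 CPM, and was 2.65-fold lower in the floor (2.05 to 3.45), but 1.24-fold lower without roof cell 10 and 5.71-fold lower without floor cell 3. The gene cenpf was detected in 3 roof cells, up to 980 CPM, and 6 floor cells, up to 320 CPM, with a log2 ratio of -0.43 that turned to 1.05 without roof cell 10.

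Of the spindle genes, both motor genes passed 2-fold at 21 hpf and neither assembly gene did. The gene kif2c, whose product takes spindle fibres apart at kinetochores, had medians of 90 and 42.5 CPM and highest cells of 675 and 225 CPM in roof and floor at 21 hpf. It was 2.79-fold lower in the floor (2.37 to 3.29), stably. The gene kif11, whose motor pushes the spindle poles apart, had medians of 100 and 37.5 CPM at 21 hpf and was 2.19-fold lower in the floor (1.92 to 2.51), not stably. At 28 hpf kif11 reached 1775 CPM in roof cell 10 and at most 335 CPM in a floor cell, and its floor to roof log2 ratio of -1.29 turned to 0.90 without roof cell 10.

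The assembly factor gene tpx2, which activates Aurora A at the spindle, had medians of 335 and 110 CPM at 21 hpf, but its highest cell was floor cell 9 with 2765 CPM, against 1590 CPM in the roof. Its group levels of 439 and 428 CPM differed by a log2 ratio of -0.04, and without floor cell 9 by 1.51-fold. The cells of 28 hpf with tpx2 were 2 in the roof, up to 1005 CPM, and 7 in the floor, up to 920 CPM, with a log2 ratio of 0.93. The gene nusap1, whose product bundles spindle fibres, had group levels of 144, 72.5, 106 and 179 CPM in the 4 groups, with a floor to roof log2 ratio of -0.99 at 21 hpf. That ratio was -0.28 on unthinned sums, -0.39 without roof cell 11 and -1.44 without floor cell 11. It was 2.47-fold higher in the floor at 28 than at 21 hpf (2.11 to 2.89).

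The chromosome gene mki67 was close between roof and floor at 21 hpf. There it had medians of 720 and 520 CPM and highest cells of 1905 and 3215 CPM, and was detected in 14 of 17 roof and 16 of 18 floor cells. Its group levels of 685 and 739 CPM gave a log2 ratio of 0.11. Later mki67 was detected in 2 roof cells, up to 855 CPM, and 7 floor cells, up to 1205 CPM, and the group levels of 146 and 319 CPM were 4.69-fold (4.15 to 5.32) and 2.31-fold (2.13 to 2.51) lower than at 21 hpf. Without roof cell 9 the former was 10.2-fold. The topoisomerase gene top2a, which untangles sister DNA, had medians of 345 and 127.5 CPM and highest cells of 1680 and 1025 CPM at 21 hpf, with group levels of 470 and 308 CPM and a log2 ratio of -0.61 (-0.72 to -0.50). At 28 hpf its highest cells had 1830 CPM in the roof and 790 CPM in the floor, with a floor to roof log2 ratio of -0.58 that turned to 0.49 without roof cell 10.

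Condensin, the complex that compacts chromosomes, showed the widest change with stage in the roof among the roles. The 6 condensin genes together took 1167 and 804 CPM in the roof and floor of 21 hpf and 173 and 530 CPM at 28 hpf. The log2 ratio of 28 to 21 hpf was -2.76 (-2.92 to -2.60) in the roof and -0.60 (-0.70 to -0.50) in the floor, and that of floor to roof at 28 hpf was 1.62 (1.45 to 1.80). Without roof cell 10 the values were -3.61 in the roof and 2.47 for floor to roof. The core subunit gene smc4 had medians of 210 and 205 CPM and highest cells of 620 and 1160 CPM at 21 hpf, and reached only 85 CPM in a roof cell but 630 CPM in a floor cell at 28 hpf. It was 6.34-fold higher in the floor at 28 hpf (4.65 to 8.82), stably. The other core subunit gene, smc2, had highest cells of 205 and 475 CPM in roof and floor at 28 hpf, 2.82-fold higher in the floor (2.16 to 3.70), and 1.90-fold without floor cell 5.

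Of the condensin I genes, ncapg had medians of 105 and 65 CPM and highest cells of 800 and 350 CPM in roof and floor at 21 hpf, and was 2.52-fold lower in the floor (2.20 to 2.90), stably. By 28 hpf 2 roof cells had ncapg, up to 200 CPM, and 6 floor cells, up to 375 CPM. The gene ncaph had medians of 70 and 20 CPM at 21 hpf, and at 28 hpf reached 75 CPM in 2 roof cells and 185 CPM in 7 floor cells, 5.45-fold higher in the floor (3.47 to 8.98), stably. The gene ncapd2 had group levels of 297, 219, 62.0 and 121 CPM. The condensin II gene ncaph2 had no read in the roof at 28 hpf and 21.7 CPM in the floor, detected in 4 cells, which was at least 14.4-fold higher against a limit of 3 reads over the group. Without floor cell 11, which held 48.1% of these reads, was not called and had over 1% erythroid counts, the bound was 8.18-fold.

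Cytokinesis genes as a role had a lower level in the floor at 21 hpf, with a summed log2 ratio of -1.19 (-1.30 to -1.09). At 28 hpf the ratio was -0.40 (-0.54 to -0.27), and it turned to 0.49 without roof cell 10. The central spindle motor gene kif23 had medians of 130 and 2.5 CPM and highest cells of 860 and 470 CPM at 21 hpf, and was 3.18-fold lower in the floor (2.75 to 3.67), stably. By 28 hpf 3 roof cells had kif23, up to 805 CPM, and 5 floor cells, up to 290 CPM. The motor gene kif20a had medians of 155 and 5 CPM and highest cells of 390 and 340 CPM at 21 hpf, 2.41-fold lower in the floor (2.05 to 2.84), stably, and highest cells of 665 and 235 CPM at 28 hpf. The floor to roof log2 ratios at 28 hpf were -0.98 for kif23 and -0.89 for kif20a, and -0.07 and 0.33 without roof cell 10.

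The anillin gene anln, a scaffold of the contractile ring, had medians of 40 and 2.5 CPM and highest cells of 350 and 105 CPM at 21 hpf, 2.87-fold lower in the floor (2.31 to 3.58), stably. Later it was detected in a single roof cell (525 CPM) and 5 floor cells (up to 260 CPM), with a log2 ratio of -0.09 that became 5.50 without that roof cell, cell 9. That cell held 98.1% of the 107 thinned roof reads of anln, so the latter value rests on very few reads. The genes racgap1, ect2 and prc1a, which act with these motors in placing the ring, were within 2-fold between floor and roof at both stages on thinned sums with all cells in. Their group levels were 23 to 40.8, 35.5 to 84.7 and 43.1 to 91.5 CPM. On unthinned sums the log2 ratio of racgap1 was -1.06 at 21 hpf and 1.18 at 28 hpf, and that of ect2 was -1.39 at 21 hpf. By the mean of the cells' levels racgap1 had 1.25 at 28 hpf.

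Levels were then set side by side within the called cells, where a difference in the number of such cells plays no part. The same members chose these cells, so the values describe them and test no difference. Cell makeup still differed: 7 of the 10 called floor cells of 21 hpf had over 1% erythroid counts. The part of makeup was not tested. At 21 hpf, over 10 floor and 12 roof cells, the summed members had a floor to roof log2 ratio of -0.35. By gene, 1 was 2-fold higher, 8 lower and 30 within 2-fold, beside 32% higher and 32.5% lower among 11652 genes in the same cells. The higher gene was bub1 (log2 ratio 2.51). The lower ones were aurka (-1.71), anln (-1.43), kif23 (-1.36), kif2c (-1.21), cdc20 (-1.16), ncaph2 (-1.12), ncapg (-1.08) and bub1bb (-1.07).

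At 28 hpf, over 6 floor and 2 roof cells, the summed members had a log2 ratio of -0.73, from 10003 against 16610 CPM, opposite in sign to that over all cells. The genes smc4 (1.56) and ndc80 (1.42) were higher in the floor and 11 were lower, beside 32.4% higher and 35.6% lower among 8164 genes. The ndc80 value rests on the same 17 thinned roof reads as over all cells. Both called roof cells lay above all 6 called floor cells in 10 of 38 members, which were plk1, bub1bb, cdc20, cenpe, cenpf, kif11, top2a, kif20a, kif23 and prc1a. Among the 8164 genes, 14.7% did so. They lay below all 6 floor cells in 0 members, beside 5.76% of genes. For top2a the called roof cells had 1385 and 1830 CPM and the called floor cells 105 to 790 CPM, for kif23 they had 605 and 805 against 20 to 290 CPM, and for smc4 they had 70 and 85 against 70 to 630 CPM.

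The members moved together over cells. Across the 57 cells, which share their thinned depth, the Pearson correlation of a member with the mean of the others had a median of 0.85 over 38 members, from 0.48 for ncaph2 to 0.94 for ccnb1, as log2(thinned CPM + 1). Pairs of members had a median of 0.71 over all cells, and of 0.21 within the 30 called cells. The lower value within the called cells follows in part from choosing them by these members. The 7171 other genes had a median correlation with the member mean of 0.11.

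The 15 genes most like the member mean over the 57 cells were tacc3 (0.92), cdca8 (0.90), cks1b and kpna2 (0.89), ENSDARG00000099194, prc1b and g2e3 (0.86), zgc:86764 (0.85), arhgap19, aspm and armc1l (0.84), pbk and kifc1 (0.83), and dlgap5 and prr11 (0.82). The spindle gene tacc3 and the chromosomal passenger gene cdca8 led this order. Of the 15, 8 stood on the list of further mitosis genes. These correlations are descriptions of the same cells and carry no test.

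The further mitosis genes outside the member list had medians of the same sign as the members in the floor to roof comparisons and over time in the roof, and of the opposite sign over time in the floor. At 21 hpf, 4 of 62 were higher (6.45%) and 17 lower (27.4%) in the floor, with a median log2 ratio of -0.49, beside 32.8% and 25.7% of all genes. At 28 hpf, 29 of 62 were higher (46.8%) and 7 lower (11.3%), with a median of 0.94, beside 34.9% and 35.6%. In the roof 37 of 62 were lower and 0 higher at 28 hpf than at 21 hpf, with a median of -1.45, beside 35.3% lower and 22.5% higher of all genes. In the floor 18 were lower (29.0%) and 11 higher (17.7%), with a median of -0.45, beside 42.2% lower, 16.5% higher and a median of -0.56 of all genes. At 21 hpf anapc1, a scaffold subunit of the anaphase-promoting complex, was 9.15-fold higher in the floor (5.69 to 15.5) and detected in 10 of 18 floor against 2 of 17 roof cells. Its log2 ratio was 3.19, and 4.18 without roof cell 13. The genes kif20bb and nek2 were 2.04-fold (1.71 to 2.43) and 1.83-fold (1.47 to 2.29) higher, and neither was stable. The Cdk-binding gene cks1b was 6.05-fold lower (4.97 to 7.42), depdc1a 9.93-fold lower (7.15 to 14.1), and the nuclear lamina gene lmnb2 3.07-fold lower (2.92 to 3.23) while detected in every cell of both groups.

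At 28 hpf the motor gene kif15 was detected in 5 of 12 floor and 0 of 10 roof cells, with 52.9 against 1.00 CPM. Its log2 ratio was 5.73, and 4.93 without floor cell 1, a cell with no member detected. The transcription factor gene mybl2b was 14.8-fold higher in the floor (7.88 to 31.5) and fbxo5, an inhibitor of the anaphase-promoting complex, was 7.06-fold higher (4.12 to 13). The inhibitory kinase gene wee1, which holds back Cdk1, was 2.72-fold lower in the floor (1.93 to 3.89), and prc1b 2.23-fold lower (1.83 to 2.72). These values rested on single roof cells. Without roof cell 9 the log2 ratio went from 3.89 to 5.48 for mybl2b (2.90 without floor cell 11). Without the same roof cell it went from 2.82 to 4.99 for fbxo5 and from -1.44 to -0.42 for wee1. Without roof cell 10 that of prc1b went from -1.15 to 0.11. The lamina gene lmnb1 was 1.66-fold lower in the floor (1.34 to 2.06), not stably.

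S-phase genes had larger ratios than the members at 28 hpf. At 21 hpf, 11 of 53 were higher (20.8%) and 4 lower (7.55%) in the floor, with a median log2 ratio of 0.05, beside 32.8% and 25.7% of all genes. Without the cells of over 1% erythroid counts 10 were higher (18.9%) and 15 lower (28.3%), with a median of -0.33, beside 29.5% and 26% of 12086 genes. At 28 hpf 46 of 51 were higher (90.2%) and 1 lower, with a median of 2.62, beside 34.9% and 35.6%. In the roof 51 of 53 were lower at 28 than at 21 hpf (96.2%), with a median of -4.06, beside 35.3%. The floor had 28 of 53 lower (52.8%) and 1 higher at 28 hpf, with a median of -1.07, beside 42.2% lower and 16.5% higher.

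The S-phase level of the floor at 28 hpf rested on 2 of the 12 cells. Floor cell 11, with over 1% erythroid counts, had 16610 CPM and floor cell 6, with the muscle genes, 8995 CPM, together 62.4% of the S-phase reads, and the next cell had 2895 CPM. The group level of 3417 CPM was 2218 CPM without cell 11 and 1540 CPM without both, against 481 CPM in the roof. The summed floor to roof log2 ratio was 2.83, and 1.68 without both cells, where 30 of 39 genes were higher and 4 lower, beside 32.4% and 38.8% of all genes. Over time in the floor, 45 of 53 were lower without cell 11 (84.9%), beside 44.4% of 12198 genes. These 2 cells were left out after their values were seen. The replicative helicase gene mcm3 had no read in the roof at 28 hpf and 218 CPM in the floor, at least 145-fold higher, and mcm6 was at least 89.4-fold higher from 134 CPM. The bounds were 75.5-fold for mcm3 without floor cell 11 and 51.2-fold for mcm6 without floor cell 6. For mcm2 the roof had 0.500 CPM and the floor 255 CPM, with detection in 0 of 10 and 6 of 12 cells.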

How the data were processed

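Each cell was 1 Smart-seq2 library, captured with oligo-dT and read as 150 bp pairs, per the labels' protocols. The authors deposited raw counts per gene and cell in 1 table. The submitters' processing notes name Trim Galore, STAR and the GRCz11 (danRer11) assembly, with no versions. How reads were counted, on which annotation and with which strand rule is not given in the sources used here, so reads of overlapping genes cannot be told apart. No column was without a sample, and no columns were identical.

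Symbols were read from the row names, and the row with the most reads was kept where a symbol recurred. Each of 58 cells was thinned to 200000 reads without replacement (seed 1), which left out 1 cell. Group levels are summed thinned counts with exact Poisson intervals, ratios have exact binomial intervals, and shares have Clopper-Pearson intervals. A group at 0 reads entered a ratio at 3 reads. No p-value was computed, since a group held 1 sample. The summed level, the number of members at 2-fold and the G2/M-type calls were recomputed with raw sums, mean levels per cell, another seed and depth, scaling by TMM (edgeR 4.0.16) or by the size factors that DESeq2 1.42.0 gives, other limits, and without each cell or kind of cell in turn. These factors only rescaled the sums. The steps were tested on simulated data. Work was done in Python 3.11.15, numpy 2.4.6, pandas 2.3.3, scipy 1.17.1, matplotlib 3.10.9 and R 4.3.3.

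The members, gene lists, limits and alternatives were chosen with earlier results of these data known. All members were named, with those of fixed interest or stable at 2-fold given in full. Of other lists, up to 3 genes of largest floor to roof ratio each way at 50 or more CPM were named.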

Additional observations from a re-analysis of the deposited data

Results flagged for a closer look

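In the 10 roof cells of 28 hpf, cell 10 was flagged in 3 of 19 items by Dixon's criterion for a single distant value among 10. The items were single members and the summed level of the members. It had 1740 CPM of cdk1, where the next cell had 850 CPM. It had 560 CPM of aurkb, where the next had 170 CPM, and 980 CPM of cenpf, where the next had 410 CPM. For normally distributed values, chance passes this limit in about 1 of 20 groups. The values here held many zeros, so that rate need not hold for them. The cause was not tested.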

How the results depend on the processing

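No paired analysis was possible because the results come from no test and the cells' numbers name no shared animal. The floor to roof ratios of the summed members kept their sign in every setting tried, and the settings that moved them beyond the counting interval were these. At 21 hpf the main log2 ratio of -0.64 became -0.72 with raw sums or DESeq2 factors, -1.25 without erythroid cells and -4.04 with roof-like floor cells only; without 1 cell it ran from -0.82 to -0.53. At 28 hpf 0.63 became 0.50 with raw sums, 0.58 with TMM, 0.56 with DESeq2 factors, 0.36 without erythroid cells, 0.75 without cells of under 2000 genes and 0.16 without part M12; without 1 cell it ran from 0.44 to 1.63. In the roof -1.10 became -1.05, -0.99 and -0.88 with raw sums, TMM and DESeq2 factors, and ran from -2.10 to -0.95 without 1 cell. In the floor 0.16 became 0.24 and 0.40 with TMM and DESeq2 factors, 0.51 without erythroid cells, 0.28 without cells of under 2000 genes and -0.31 without part M12, and ran from -0.024 to 0.35 without 1 cell. DESeq2 factors moved the ratio of every gene between stages by 0.22 in the roof and 0.24 in the floor, and TMM by 0.11 in the roof. The 12 members at 2-fold at 21 hpf became 29, all lower in the floor, without erythroid cells, and 10 to 18 without 1 cell; the counts without 1 cell were 18 to 30 at 28 hpf, 18 to 34 in the roof and 5 to 11 in the floor. The 10 of 18 floor cells called at 21 hpf became 3 of 10 without erythroid cells and 0 of 4 with roof-like floor cells only. Over 8 other limits the calls of the 4 groups were 11 to 13, 8 to 12, 2 and 6 to 7. Leaving out 1 cell gave the floor to roof ratios of 8 of 39 members at 21 hpf and 10 of 38 at 28 hpf both signs. Of the members at 2-fold, the ratios of bub1 at 21 hpf and kif11 at 28 hpf changed sign. That of bub1 went to a bound of at most -2.33 with roof-like floor cells only, which had no thinned bub1 read. That of kif11 ran from -1.70 to 0.90 without 1 cell, with 0.90 without roof cell 10. Without erythroid cells bub1 at 21 hpf (0.32) and ccnb1 (0.76), mki67 (0.67) and smc2 (0.84) at 28 hpf fell below 2-fold. No floor cell of 28 hpf had a roof-like endothelial share, so that setting was not run there. The cause of these shifts was not tested, and the small numbers of cells limit all shares.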

Other observations

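Genes of the G1 phase and of cycle arrest, which are not members, differed between roof and floor with no common direction. Of 29 with enough reads at 21 hpf, 7 were higher and 13 lower in the floor, with a median log2 ratio of -0.61, beside 32.8% and 25.7% of all genes. At 28 hpf 9 of 25 were higher and 7 lower, with a median of -0.26, beside 34.9% and 35.6%. The cyclin G2 gene ccng2, which is known to be high in cells leaving the cycle, was lower in the floor at both stages. It was 4.36-fold lower at 21 hpf (3.78 to 5.03), with detection in 9 of 18 floor and 16 of 17 roof cells. At 28 hpf it was 15.9-fold lower (10.1 to 26.5), with detection in 1 of 12 floor and 10 of 10 roof cells. The Myc gene mycb was higher in the floor at both stages, 15.6-fold at 21 hpf (11.2 to 22.3) and 18.7-fold at 28 hpf (11.2 to 33.7). Its log2 ratios of 3.96 and 4.22 became 5.76 without roof cell 14 of 21 hpf and 7.98 without roof cell 3 of 28 hpf, and 3.21 and 3.25 without floor cells 11 and 5. The roof had 37 thinned mycb reads at 21 hpf and 15 at 28 hpf, with detection in 2 of 17 and 1 of 10 cells. For ccng2 at 28 hpf the log2 ratio of -3.99 became -4.87 without floor cell 4. Also higher in the floor at 21 hpf were mych (4.84-fold, 4.26 to 5.51) and ccnd1 (3.34-fold, 3.03 to 3.67). At 28 hpf e2f4 was 5.22-fold higher in the floor (3.69 to 7.56), and each of these ratios was stable.

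The 4 genes of the stress-inducible Gadd45 family that were on the list were all below the roof in the floor of 21 hpf. There gadd45bb was 19.9-fold lower (10.9 to 40.5) and gadd45aa 14.8-fold lower (9.38 to 24.6). To complete these 4 genes, gadd45ba was 2.31-fold lower (1.99 to 2.68), and 1.85-fold without roof cell 14. The gene gadd45ab had a log2 ratio of -0.61 (-0.93 to -0.29). At 28 hpf gadd45ba was 8.01-fold lower in the floor (6.79 to 9.49), with detection in 3 of 12 floor and 9 of 10 roof cells, while gadd45ab had no read in the roof and 67.1 CPM in the floor, at least 44.7-fold higher. The other two were low at that stage, gadd45bb with 44.5 CPM in the roof and 0.417 CPM in the floor, and gadd45aa with 0 and 4.58 CPM. The values named to complete the 4 listed genes were chosen after they were seen. Leaving out 1 floor cell took the log2 ratios of gadd45bb from -4.32 to -6.69 (cell 18), of gadd45aa from -3.88 to -4.95 (cell 9) and of gadd45ba from -3.0 to -4.13 (cell 7). The floor of 21 hpf had 11 thinned reads of gadd45bb and 20 of gadd45aa. The inhibitor gene cdkn1bb, of the p27 family, was 4.14-fold lower in the floor at 28 hpf (3.09 to 5.61), with a log2 ratio of -2.05 that became -3.02 without floor cell 6. The endothelial and erythroid makeup of roof and floor cells differed along the same contrasts, and its part in these differences was not tested.

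The S-phase genes of largest ratio each way at 21 hpf included the following. The origin gene orc6 was 6.08-fold higher in the floor (4.5 to 8.37), with detection in 13 of 18 floor and 4 of 17 roof cells, and mcm3 was 3.72-fold higher (3.31 to 4.19). The log2 ratio of orc6 was 2.60, and 4.07 without roof cell 6. The gene mcm10 was 6.37-fold higher (4.23 to 9.92), but 2.07-fold without floor cell 6, and rfc3 was 2.48-fold lower (2.04 to 3.01). The replication genes pola2 and cdc45 were 3.62-fold (2.91 to 4.55) and 3.61-fold (2.90 to 4.53) lower, and the log2 ratio of cdc45 went from -1.85 to -2.81 without floor cell 5.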
